A study of Mus musculus with 8 samples.

Results

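The interleukin-6 (IL-6) family of cytokines, its receptors and the STAT3 pathway were followed in whole mouse hearts after coronary ligation, through 10 genes: Il6, Lif, Osm, Il6st, Osmr, Lifr, Il6ra, Il11ra1, Stat3 and Socs3. Their probes were found by gene symbol, taking rows of the value table whose single symbol in the platform annotation was 1 of the 10. This gave 10 of 33600 probes, for 9 genes, and the level of Il11ra1 was not analysed here. The genes were chosen from the family with the differences between infarcted and sham hearts on these arrays already known, so those differences are given as a description, with no test of their own. The study compared 4 arrays from infarcted C57Bl/6 mice with 4 from sham-operated C57Bl/6 mice. The infarcted mice carried a permanent ligature on a descending branch of the left coronary artery. In the sham mice the suture was passed and not tied. All mice were 8-10 weeks old, and no genotype or transgene was named. Red-labelled total RNA from heart (30 µg per array) was hybridised to spotted 70-mer oligonucleotides beside a green-labelled reference RNA pooled from adult mouse tissues. No source used here gave the time between ligation and sampling.

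Most IL-6 family cytokines signal through gp130, the receptor subunit encoded by Il6st, which pairs with a subunit specific to the ligand. IL-6 binds Il6ra, leukaemia inhibitory factor binds Lifr and oncostatin M binds Osmr or Lifr. The paired receptors activate JAK kinases, which phosphorylate STAT3, and STAT3 enters the nucleus and induces, among others, Socs3, an inhibitor that acts back on gp130. In the heart this pathway is known for its part in survival of muscle cells, in hypertrophy and in the response to injury.

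The start regions of 3 members are shown because they hold the only match to a STAT motif among the members, in the inhibitor Socs3, and the start regions of the members with the largest differences, Il6st and Osmr. RefSeq windows of build GRCm38.p6 were used, from 250 bases before to 50 bases after each gene start, printed 5′ to 3′ on the gene's strand. Capitals mark the motif TTCNNNGAA, the palindromic element that STAT dimers bind. The windows lie at chr11:117969317-117969616 (minus strand) for Socs3, chr13:112463820-112464119 (plus strand) for Il6st and chr15:6874264-6874563 (minus strand) for Osmr.
Socs3: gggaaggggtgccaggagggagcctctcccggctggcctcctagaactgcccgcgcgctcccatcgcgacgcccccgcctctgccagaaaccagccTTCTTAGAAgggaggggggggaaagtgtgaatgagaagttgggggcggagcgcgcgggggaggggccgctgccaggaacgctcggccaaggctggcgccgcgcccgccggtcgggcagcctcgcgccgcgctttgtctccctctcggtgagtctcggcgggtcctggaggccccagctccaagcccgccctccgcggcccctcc
Il6st: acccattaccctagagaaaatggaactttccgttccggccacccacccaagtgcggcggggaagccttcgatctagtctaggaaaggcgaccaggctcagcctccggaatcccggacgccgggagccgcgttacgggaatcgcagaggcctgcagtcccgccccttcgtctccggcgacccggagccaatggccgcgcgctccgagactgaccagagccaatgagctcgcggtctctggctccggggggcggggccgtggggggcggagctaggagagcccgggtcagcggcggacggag
Osmr: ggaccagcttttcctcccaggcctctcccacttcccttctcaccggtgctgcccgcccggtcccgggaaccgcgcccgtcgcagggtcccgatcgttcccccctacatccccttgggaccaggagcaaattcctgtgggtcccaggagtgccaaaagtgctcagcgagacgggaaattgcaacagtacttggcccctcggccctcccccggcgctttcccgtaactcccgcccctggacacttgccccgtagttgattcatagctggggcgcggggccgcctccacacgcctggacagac
The Socs3 window held 1 match, TTCTTAGAA, which began 154 bases before the gene start. The motif reads the same on both strands, so 1 search covered both. The table held 11 windows for 9 of the 10 genes, all but Osm, with 2 each for Il11ra1 and Lifr. Of these windows 1 held a match, and 8.3% of all 32851 windows did. The Socs3, Il6st and Osmr windows were 73.3%, 68.3% and 66.0% G and C, where the median window had 52.7%. A match is a description of these letters and not a binding site, and its absence says only that the letters are not in the window.

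Levels are given on the log2 scale with the median spot of the printed block as the unit, so 0 is the median spot and 1 is a signal 2-fold above it. The table held 19704 to 24819 values per sham array and 21916 to 23655 per infarcted array. When 2 to the power of each value was multiplied by 1 constant per block, all 384 blocks over the 8 arrays gave whole numbers, from 42 to 65466. The values are therefore read as 1 channel of the scanner, with the other channel absent and no ratio to the reference. Heart markers were present, with a mean level over 7 cardiac muscle probes of 3.45 to 4.75 on the sham and 4.20 to 4.44 on the infarcted arrays. These 7 had a value on all 8 arrays and were for Ttn, Ryr2 and Myl7. Several of the 21 cardiac muscle probes were brighter but lacked values. Among them Ckm had means of 6.65 on the sham and 5.96 on the infarcted arrays, and Atp2a2 had 6.65 on the infarcted arrays and no sham value. Markers of tissues in the reference pool differed by tissue. The mean of 12 probes for testis genes was 2.28 to 3.61 on the sham and 1.84 to 2.21 on the infarcted arrays, and the mean of 7 probes for liver genes was 2.79 to 4.03 and 1.74 to 2.50. Stomach markers (9 probes) had 1.82 to 3.18 and 1.83 to 2.05, and lung markers (9 probes) -0.10 to 1.54 and 0.39 to 0.92. Brain markers (10 probes) lay about the median spot, at -0.75 to 0.68 and -0.18 to 0.17, and 7 of 9 kidney probes had no value on any array. The 1 kidney probe with a value on all 8 arrays, of Aqp2, had -1.784, 2.707, 3.155 and 2.791 on the sham and 2.211, 2.314, 2.366 and 1.945 on the infarcted arrays. Prm2, a protamine of sperm, had 4.46, 3.72, 4.42 and 4.01 on the sham and 2.48, 2.08, 2.89 and 2.40 on the infarcted arrays, and was lower by 1.69 ± 0.26 on the log2 scale on the infarcted arrays (SE, limma adjusted p = 0.0265). After quantile normalization the Prm2 difference was -1.34 and did not pass (limma adjusted p = 0.112). Whether the values hold the channel of the heart RNA, that of the reference RNA or a mixture could not be settled. The differences below are therefore those of the deposited signal, and the part of the reference in them was not tested. Sham control replicate 4 stood apart, with correlations of 0.873 to 0.894 to the other 7 arrays across all spots, where all other pairs had 0.900 to 0.958.

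**Figure D1:**
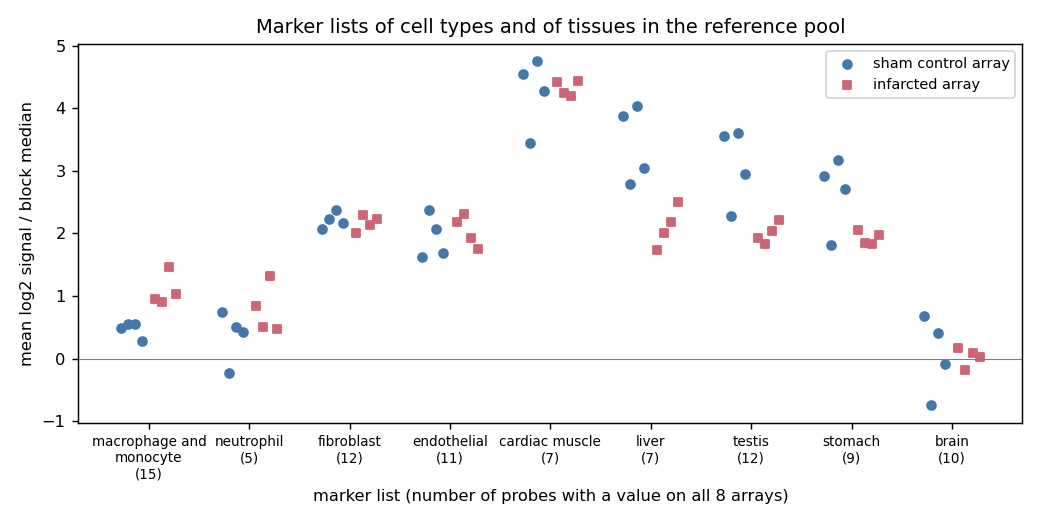
Mean log2 signal relative to the block median (vertical axis) of marker lists (horizontal axis, with the number of probes that have a value on all 8 arrays), 1 point per array. Macrophage and monocyte markers lay at 0.29 to 0.56 on the sham and 0.90 to 1.47 on the infarcted arrays, while testis and liver markers lay lower on the infarcted than on the sham arrays.

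The cytokines themselves gave almost no signal. The probes of Lif, encoding leukaemia inhibitory factor, and Osm, encoding oncostatin M, had no value on any of the 8 arrays. The probe of Il6 had 1 value, -2.35 on sham control replicate 3, a scanner signal of 90 where the lowest of any spot was 42. No level and no difference can be given for these 3 cytokines, and an empty spot does not show that the transcript was absent. Osm and Lif are neighbours on chromosome 11, with 0 other genes between them in the RefSeq table.

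Il6st, encoding gp130, the subunit shared by the receptors for IL-6, leukaemia inhibitory factor and oncostatin M, had the largest difference of the members. Its levels were 0.36, 0.46, 1.45 and -0.31 on sham control replicates 1 to 4 and 2.13, 1.72, 1.48 and 1.14 on infarcted replicates 1 to 4. The infarcted array was the higher one in 15 of 16 pairs of an infarcted and a sham array, and the groups overlapped through sham control replicate 3. The means were 0.49 ± 0.72 and 1.62 ± 0.41 (SD, n = 4 each), a difference of 1.13 ± 0.37 (SE of the limma fit over all probes), or 2.19-fold. In scanner units, before block scaling, the sham arrays had 436 to 1633 and the infarcted arrays 1275 to 2338. Without sham control replicate 3 the difference was 1.45, and without replicate 4, the sham array with the lowest Il6st level, it was 0.86.

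Osmr, the subunit that binds oncostatin M together with gp130, was the member whose groups did not overlap. Its levels were 0.66, 0.12, 0.33 and -0.10 on the sham arrays and 1.14, 0.81, 1.13 and 1.24 on the infarcted arrays, so the lowest infarcted array lay above the highest sham array. The means were 0.25 ± 0.32 and 1.08 ± 0.19 (SD, n = 4 each), a difference of 0.82 ± 0.24 (SE), or 1.77-fold. Of all 20561 probes tested, 2.79% had groups that did not overlap with the infarcted arrays higher. In scanner units the groups did overlap, at 372 to 870 on the sham and 689 to 1107 on the infarcted arrays, and with no block scaling the Osmr difference was 0.56 ± 0.31. The choice of the block median as the unit therefore bears on this gene. Its difference stayed above 0 in all 19 alternatives, from 0.56 to 0.96. Some of these, such as another filter or the replicate block, could not change it, since its 1 probe had a value on every array.

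Lifr, which pairs with gp130 for leukaemia inhibitory factor, lies near Osmr on chromosome 15 with 3 genes between them, 0 of them protein-coding. The arrays of the 2 groups were intermingled for Lifr. It had 0.27, -0.42, -0.14 and 0.24 on the sham arrays and -0.04, -0.23, 0.72 and -0.11 on the infarcted arrays, a difference of 0.10 ± 0.28 (SE). Without infarcted replicate 3, the array with the highest level, the difference was -0.11. Il6ra, the subunit specific to IL-6, was below the block median on 7 of 8 arrays. Its levels were 0.04, -1.24, -0.19 and -1.73 on the sham and -0.18, -0.69, -0.57 and -0.22 on the infarcted arrays. The 2 low sham values came from replicates 2 and 4, which also had the fewest values of all arrays. The Il6ra difference was 0.37 ± 0.39 (SE) with all arrays and -0.34 ± 0.27 without those 2, a setting chosen after seeing the data, so its direction rested on them.

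Stat3, the transcription factor that the receptors activate, lay well above the block median on every array. It had 1.44, 2.67, 2.72 and 2.26 on the sham arrays and 2.82, 2.49, 2.40 and 2.29 on the infarcted arrays. The groups overlapped, and 1 array, sham control replicate 1, was the low one. The difference was 0.23 ± 0.31 (SE) with it and -0.05 ± 0.24 without it. The probe measures the Stat3 transcript, and the phosphorylation that activates the protein was not measured.

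Socs3, the feedback inhibitor of gp130, was represented by 2 probes. On the first the levels were 1.51, 0.06, 0.79 and 0.02 on the sham arrays and 1.47, 0.38, 1.66 and 1.57 on the infarcted arrays, with means of 0.60 ± 0.71 and 1.27 ± 0.59 (SD, n = 4 each) and a difference of 0.67 ± 0.40 (SE). In both groups the arrays fell apart into high and low ones, with sham control replicate 1 among the high and infarcted replicate 2 among the low. Without sham control replicates 2 and 4 the difference was 0.12 ± 0.40. The second probe had values on 2 sham arrays, -1.75 and -3.07, and on 2 infarcted arrays, -3.22 and -2.38, and was not in the fit. It did not repeat the direction of the first, since the infarcted array was higher in 1 of its 4 pairs. Its signals were dim, from 64 to 143. They ranked at percentiles 19.1 and 1.0 of the values of those sham arrays and 0.4 and 3.2 of those infarcted arrays.

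**Figure D2:**
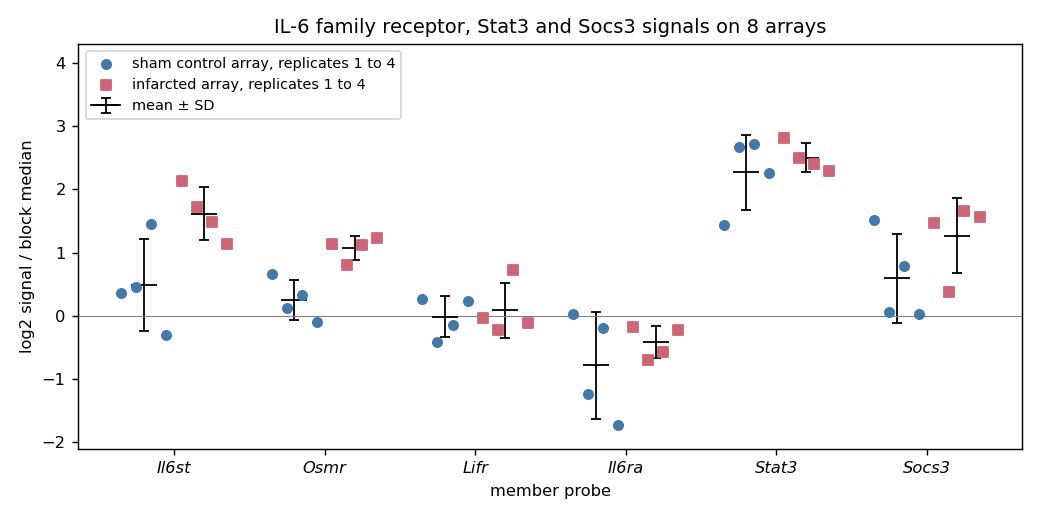
Log2 signal relative to the block median (vertical axis) of the 6 member probes with a value on all 8 arrays (horizontal axis). Points are single arrays and bars the mean ± SD of 4. Osmr is the probe whose groups do not overlap, Il6st overlaps through 1 sham array, and Lifr, Il6ra, Stat3 and Socs3 overlap.

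Of the 10 member probes, 6 had a value on at least 3 arrays of each group and entered the fit, and each of these had values on all 8 arrays. All 6 differences were above 0, with a median of 0.52, where 43.2% of all probes were above 0 and their median was -0.07. Of the 6, 0 passed at a limma adjusted p under 0.05, where 0.764% of all probes did (157 of 20561, 13 higher and 144 lower). At an unadjusted p under 0.05 there were 2, Il6st and Osmr, beside 12.5% of all probes. The members were proposed with this contrast known, so these counts are no evidence for a change of the family. The Il6st difference was reached or exceeded by 171 probes (0.832%), that of Osmr by 583 (2.84%) and that of Socs3 by 1020 (4.96%). The number of all probes that passed ran from 3 to 690 when 1 array was left out. It was 51, 84, 33 and 690 without sham control replicates 1 to 4 and 12, 14, 3 and 6 without infarcted replicates 1 to 4, while 0 member probes passed in each.

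**Figure D3:**
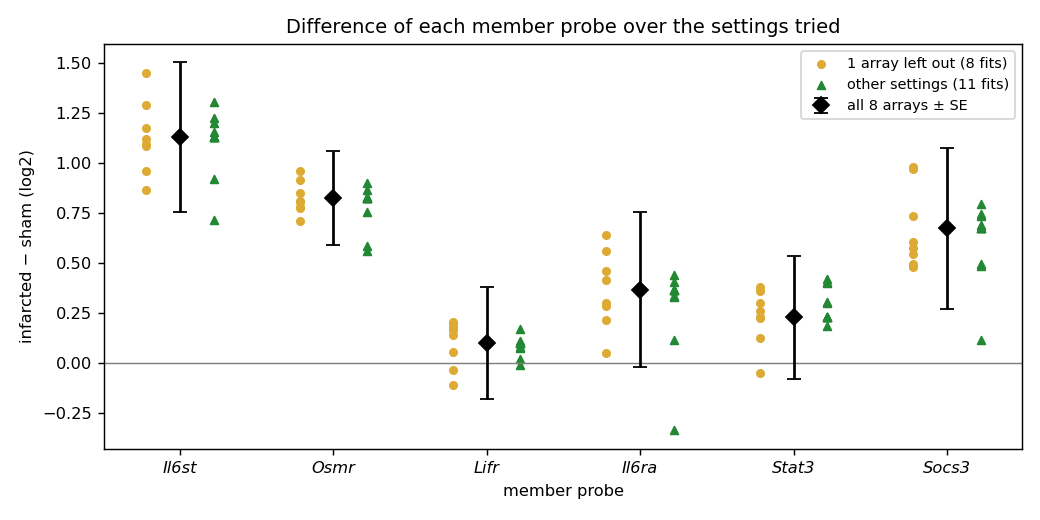
Difference between infarcted and sham control arrays (vertical axis, log2) of the 6 member probes (horizontal axis). Diamonds with bars give the value ± SE with all 8 arrays, circles the fits with 1 array left out and triangles the other settings. Il6st, Osmr and Socs3 stay above 0, while Lifr, Il6ra and Stat3 fall to -0.11, -0.34 and -0.05 in at least 1 setting.

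The size of a difference depended on the brightness of a spot. Probes with a mean level above 5 had a median difference of -0.89 and those from 4 to 5 of -0.61. Between 0 and 1, where Osmr, Lifr and the first Socs3 probe lay, the median was -0.01, and between 1 and 2, the range of Il6st, it was -0.04. Stat3 lay between 2 and 3, where the median was -0.12. After quantile normalization, which removes such a trend from the distribution of each array, the differences of Il6st, Osmr and Stat3 were 1.22 ± 0.37, 0.86 ± 0.24 and 0.41 ± 0.30 (SE).

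**Figure D4:**
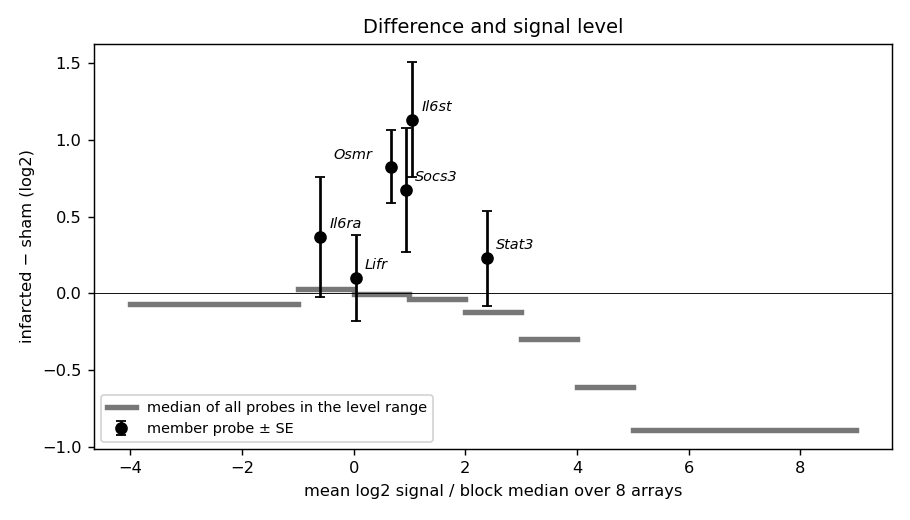
Difference between infarcted and sham control arrays (vertical axis, log2) against mean log2 signal over the 8 arrays (horizontal axis). Grey bars are medians of all probes within a range of level, from -0.07 at the dim end to -0.89 at the bright end. Points are the 6 member probes ± SE, which lie in ranges with medians from -0.12 to 0.03.

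The other genes of the pathway were taken from 6 lists, with 70 tested probes for 57 genes. Of these probes 0 passed in either direction (limma, adjusted p under 0.05), where 0.764% of all probes did, and 9 of 70 had an unadjusted p under 0.05, close to the 12.5% of all probes. In all 31 of the 70 were above 0, with a median of -0.04. The groups did not overlap for 7 of the 70 with the infarcted arrays higher, beside 2.79% of all probes. With the infarcted arrays lower this held for 1 of the 70, beside 1301 of all 20561 probes. Of the other ligands, Ctf1 (cardiotrophin 1) and Il31, which signals through Osmr without gp130, lay near the median spot on all 8 arrays, and Clcf1, Ebi3 and Il11 had dim or missing values and Il27 none. Clcf1, Ctf1 and Il31 could be tested and had differences of -0.18, -0.16 and -0.04 (adjusted p = 0.855, 0.868 and 0.979). Among the other receptors only Cntfr, for ciliary neurotrophic factor, was tested, at -0.19 (adjusted p = 0.881).

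Of 11 probes for JAK kinases and other STATs, 3 were above 0. Jak3, a kinase known from lymphocytes, had 3 probes that disagreed. One went from a mean of -0.59 to 0.34, a difference of 0.93 ± 0.27 (SE, limma adjusted p = 0.173) with groups that did not overlap, and the others had -0.54 and -0.33 (adjusted p = 0.574 and 0.691). Jak2 stood at 0.48 (adjusted p = 0.447), Stat5a at -0.77 (adjusted p = 0.244) and Stat4 at -0.40 (adjusted p = 0.513). Among inhibitors 7 of 18 probes were above 0, and 4 of the 18, for Socs4, Socs6 and Ptpn2, had groups that did not overlap, with the infarcted arrays higher. Socs4, a relative of Socs3, had -2.13, -2.34, -2.00 and -1.84 on the sham and -1.54, -1.20, -0.91 and -0.91 on the infarcted arrays. The groups did not overlap, and the difference was 0.94 ± 0.23 (SE, limma adjusted p = 0.113). Ptpn2, a phosphatase that acts on JAKs and STATs, had 0.68, 0.48 and 0.10 on its 3 probes (adjusted p = 0.279, 0.414 and 0.911), Socs6 had 0.38 (adjusted p = 0.499) and Cish -0.53 (adjusted p = 0.585).

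Among adaptors that link gp130 to RAS signalling, 3 of 8 probes were above 0. Ptpn11, the phosphatase SHP2 that gp130 recruits, had 0.90, -0.11, 0.96 and 0.53 on the sham and 1.52, 1.02, 1.17 and 1.25 on the infarcted arrays. Its groups did not overlap, with a difference of 0.67 ± 0.28 (SE, limma adjusted p = 0.353). Gab1, Grb2 and Sos1 had -0.56, -0.52 and -0.29 (adjusted p = 0.554, 0.548 and 0.623).

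Genes known as targets of STAT3 spread to both sides of 0. Of 29 tested probes 18 were above 0, with a median of 0.18, and 0 passed. Mt1, a metallothionein that STAT3 induces, was represented by 2 probes. The bright one had 6.49, 5.32, 5.83 and 5.35 on the sham and 4.34, 4.01, 4.54 and 4.12 on the infarcted arrays, a difference of -1.49 ± 0.30 (SE, limma adjusted p = 0.0536). The groups did not overlap, as was the case, with the infarcted arrays lower, for 1301 of all 20561 probes tested. This Mt1 probe lay in the brightest range, whose median was -0.89, its difference was -0.80 after quantile normalization (adjusted p = 0.445), and the other Mt1 probe had -0.19 (adjusted p = 0.848). Cd14, a receptor for bacterial lipopolysaccharide that is also a marker of monocytes, had 0.95 ± 0.36 (SE, limma adjusted p = 0.31). Pim1, a kinase, had -0.66 (adjusted p = 0.312) and Fga, a chain of fibrinogen, -1.20 (adjusted p = 0.336). Of 7 tested probes for liver genes 0 were above 0, with a median of -1.39. The part of the reference pool in the Fga difference was not tested.

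**Figure D5:**
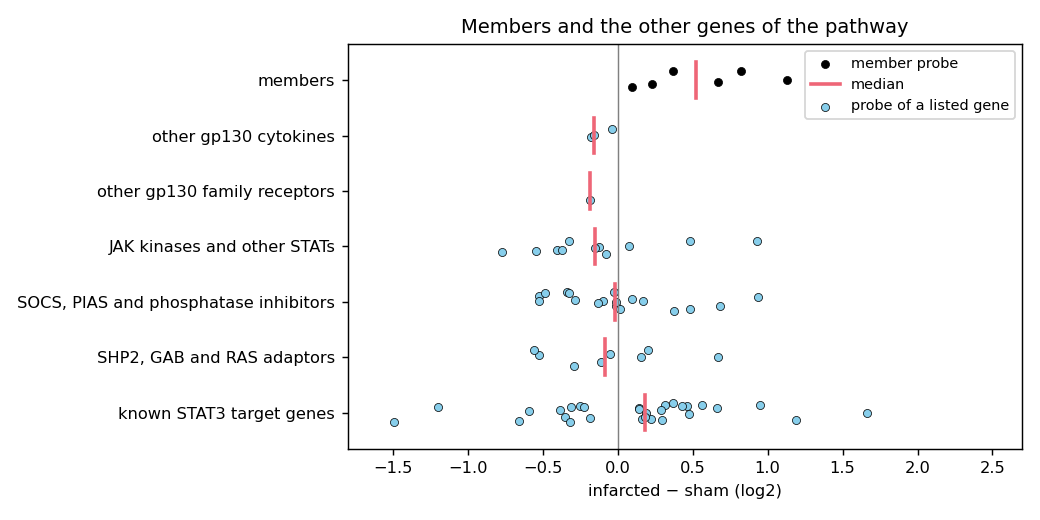
Differences between infarcted and sham control arrays (horizontal axis, log2) of member probes and of probes from 6 lists of other pathway genes (vertical axis). Points are probes and red lines medians, at 0.52 for the members and from -0.19 to 0.18 for the lists. The members were chosen with these differences known and the spread of the STAT3 targets runs from -1.49 to 1.66.

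Most probes for macrophages, monocytes and neutrophils were above 0, as the members were, and 0 passed. In whole hearts, more cells of a type and more RNA per cell cannot be told apart. Of 17 tested probes for macrophages and monocytes 15 were above 0, with a median of 0.55. The mean level of the 15 with a value on all 8 arrays did not overlap between the groups, at 0.29 to 0.56 on the sham and 0.90 to 1.47 on the infarcted arrays. The means of the testis and liver markers did not overlap either, and were lower on the infarcted arrays. Of the 17 macrophage and monocyte probes 4 did not overlap, with the infarcted arrays higher, beside 2.79% of all probes. Singly 0 of 17 passed (limma), and 7 had an unadjusted p under 0.05, beside 12.5% of all probes. Gpnmb, a glycoprotein of phagocytes, had 1.58 ± 0.31 (SE, limma adjusted p = 0.0512) and Ms4a7, a membrane protein of macrophages, 0.96 and 1.16 on its 2 probes (adjusted p = 0.147 and 0.168). Neutrophil markers had 5 of 5 probes above 0, with a median of 0.21, among them S100a9 at 0.81 and S100a8 at 0.83 (adjusted p = 0.323 and 0.475).

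Markers of lymphocytes and of the resident cells were mixed. For endothelium 8 of 12 probes were above 0, with a median of 0.27, and 1 Pecam1 probe had 0.98 and 1 Flt1 probe -0.84 (adjusted p = 0.352 and 0.216), beside 0.70 and 0.20 on the other Pecam1 probes and 0.59 on the other Flt1 probe. For fibroblasts 5 of 13 were above 0, with a median of -0.05, with Postn at 1.76 and Col3a1 at -0.61 (adjusted p = 0.197 and 0.284). Smooth muscle and pericytes had a median of -0.13, with Acta2 at -0.73 and Cnn1 at 0.70 (adjusted p = 0.361 and 0.459). Lymphocytes had a median of 0.01 over 4 probes, with Cd79b at -0.31 and Cd79a at 0.16 (adjusted p = 0.802 and 0.9). Of 21 cardiac muscle probes 12 could be tested, for 6 genes and most of them for Ttn, with a median of 0.14, with Mybpc3 at -1.11 (adjusted p = 0.27), and the Ttn probes ran from -0.91 to 1.27 (adjusted p = 0.134 and 0.227). The other 9 lacked values, mostly on the sham arrays. Those of Atp2a2, Myl3, Mb and 1 of Actc1 had 0 sham values, and those of Tnnt2, Tnni3, Tnnc1, Myl2 and the other Actc1 had lower means on the infarcted arrays, over 1 or 2 sham values each. The part of any of these cells in the Il6st and Osmr differences was not tested.

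The profiles most like those of Il6st and Osmr were sought among 10803 probes with 1 symbol and a value on all 8 arrays, each centred on its own mean. Likeness was the root mean square of the log2 differences over the arrays. For Il6st the nearest were Cdkl3 at 0.23, a Pecam1 probe at 0.30 and P2ry14 at 0.31, where the median probe was at 0.82 and Osmr at 0.53. The Pecam1 probe had 0.28, 0.68, 1.42 and -0.78 on the sham and 1.47, 1.47, 1.20 and 1.38 on the infarcted arrays, with the same high sham replicate 3 and low replicate 4 as Il6st. For Osmr the nearest were Dlg1 at 0.12, Cidec at 0.12 and Plekha4 at 0.15, where the median probe was at 0.58. Dlg1 had 1.58, 1.11, 1.51 and 0.95 on the sham and 2.06, 1.94, 1.96 and 2.13 on the infarcted arrays. The likeness takes in the shared difference between the groups as well as the spread within them, and arrays share their brightness, so it is a description of these 8 arrays.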

How the data were processed

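Log2 signals of 8 arrays of whole hearts were used as deposited by the authors, 1 column per array. The steps from image to signal, such as background subtraction and the dropping of spots, are not given in the sources used here. Each deposited value became a whole number within 0.001 when 2 to its power was multiplied by 1 constant per block of 700 spots. Centring on the array median changed nothing, since it was already 0. The tests had been planned for a ratio to the reference and were kept for this signal. The platform annotation paired 18179 of 33600 probes with 1 gene symbol and 87 with several, and did not list 15334. All 10 member probes carried an Entrez identifier with the same symbol in RefSeq (GRCm38.p6).

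The fit took the 20561 probes with at least 3 values in both groups. It used limma 3.58.1 (R 4.3.3; lmFit, then eBayes) with group as the only term and Benjamini-Hochberg adjustment over all of them, and a probe passed at an adjusted p under 0.05. The script was checked on simulated data. Named were all members, up to 4 tested genes per pathway list and 2 per cell marker list with the smallest p, and the 3 nearest profiles of Il6st and Osmr. The members, lists and rules were chosen with earlier results of these data known. The labels number the arrays of each group as replicates, and each array was taken to hold another heart. On that reading p-values cover the spread of hearts and arrays together, and the number of arrays limits the precision.

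Replicate numbers were not treated as pairs in the fit. The alternatives, among them quantile normalization, loess, other filters, array weights and each array left out, are given in the closing section.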

Additional observations from a re-analysis of the deposited data

Results flagged for a closer look

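The level of the first Socs3 probe on infarcted replicate 2 was 0.38, far from the 3 other infarcted arrays, and the gap to the nearest of them was 0.851 of the range of the group. Without that array the Socs3 difference was 0.97 in place of 0.67. Of 12 groups of 4 arrays examined in this way 1 stood out, and chance gives about 1 in 20.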

How the results depend on the processing

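Of the member probes tested (6, or 7 with at least 2 values in each group) 0 passed with the settings of the report and in all 19 alternatives, and the median difference of the 6, 0.52, ran from 0.27 to 0.80. The Il6st, Osmr and Socs3 differences stayed above 0 in all 19, from 0.72 to 1.45, from 0.56 to 0.96 and from 0.12 to 0.98, while that of Il6ra ran from -0.34 to 0.64, Stat3 from -0.05 to 0.42 and Lifr from -0.11 to 0.20. Averaging over probes could change only the Socs3 difference, since the other genes had 1 probe each. None of these differences could change with other filters, the replicate block or the intensity trend, since the 6 probes had values on all 8 arrays. The number of all probes that passed was less stable than these: 157 in the report, 99 with the probes of a gene averaged, 35 after quantile normalization, 99 after loess against the mean array, 50 with no block scaling, 411 with array weights and 1225 without sham control replicates 2 and 4 together, which had the fewest values (added after seeing the data). It was 3 to 690 with 1 array left out. The cause was not tested. Among other pathway genes 1 probe, Mt1, passed with array weights, with an intensity trend and robust prior, without sham control replicates 2 and 4 and without sham control replicate 4, and the count ran from 0 to 1 with 1 array left out. Its adjusted p ran from 0.00841 to 0.445. Among cell type markers 1 probe, Gpnmb, passed with centring on the 75th percentile, no block scaling, a value on all 8 arrays, array weights, without sham control replicates 2 and 4 and without sham control replicate 4, and the count ran from 0 to 1 with 1 array left out (adjusted p from 0.0197 to 0.17). With the replicate number as a block 1 probe of all passed and 0 members did. The deviations of same-numbered arrays from their group means had correlations of 0.04, 0.31, -0.09 and -0.20, and not every sample correlated best with its own number. Deviations from a group mean are tied to each other, so these correlations cannot decide whether the numbers mark pairs. Values were missing for 27 of the 80 member probe values, which limits Il6, Lif, Osm and the second Socs3 probe most.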

Other observations

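Saa3 and 1 probe of Serpina3n, both acute-phase genes known as STAT3 targets, varied widely among the infarcted arrays and were singled out after their values were seen. Their SD over the infarcted arrays was 1.49 and 2.485. Other acute-phase targets on the list varied less, but not all were even. The SD was 0.31 for Hp, 0.34 for Fgg, 0.48 for Lbp and 0.30 for the other Serpina3n probe (3 values). It was wider for Fga, at 0.945, and for the 2 Lcn2 probes, at 0.79 and 1.01. Saa3, a serum amyloid A protein made at sites of inflammation, had a value on 1 of 4 sham arrays (-2.15) and on all 4 infarcted arrays, at -1.16, -0.56, 1.83 and 1.52 on replicates 1 to 4. A probe of Serpina3n, a protease inhibitor, had 0.32, 0.28, 0.79 and 0.35 on the sham and -1.16, 1.56, 4.48 and 3.50 on the infarcted arrays, a difference of 1.66 ± 0.98 (SE, limma adjusted p = 0.544). For Postn, the fibroblast marker, the levels were 1.60, 1.20, 2.94 and 3.06 on the same infarcted arrays. In these 3 genes infarcted replicates 3 and 4 were the high ones. Osmr was at 1.13 and 1.24 on those arrays and at 1.14 and 0.81 on infarcted replicates 1 and 2, and Il6st was lower on replicates 3 and 4 than on 1 and 2, so neither receptor followed that order. No relation was tested.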
